A study of Bos taurus with 12 samples.

Results

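SPATA1, SPATA22 and DPY19L2 are genes of sperm formation that carried tiles in the authors' comparison of DNA methylation in bull sperm. Their tiles were taken by description, as those annotated exactly as spermatogenesis associated 1, spermatogenesis associated 22 or dpy-19 like 2. This gave 9 of the 7290 listed tiles, with 4 for SPATA1, 4 for SPATA22 and 1 for DPY19L2. They represent 3 of the 540 gene IDs in the table, of which 463 have a description.

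The study compared sperm DNA of Bos taurus males in 2 groups, low BFI (6 samples) and high BFI (6 samples). Both groups are sperm cells, and the labels give no breed, age or treatment, do not spell out BFI and leave unsaid how many bulls the samples represent. The assay was EM-seq, an enzymatic counterpart of bisulfite sequencing that leaves methylated cytosines as C and turns the others into T. The authors' deposited table holds only the comparison of the groups, so methylation levels, read depth and values of single samples were not used here, and no spread between samples could be computed. Each tile is a window of 500 bp on a grid of 100 bp, with a p-value, a q-value (a p adjusted for many tests) and a signed difference in percentage points. Which group was subtracted is not stated, so a sign is given as deposited and no group is called the more methylated.

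Mature sperm carry tightly packed and transcriptionally silent DNA, so genes of sperm formation act earlier, in germ cells of the testis. Meiotic germ cells break and repair their chromosomes to exchange segments between homologues, and the haploid spermatids that follow build the acrosome, the elongated head and the flagellum. SPATA22 acts in the first of these phases, where it works with MEIOB and replication protein A on single-stranded DNA. DPY19L2 acts in the second, in the inner nuclear membrane of spermatids, where it anchors the acrosome, and its loss in men gives round-headed sperm. SPATA1 encodes a testis protein known to bind IFT20, a member of the intraflagellar transport machinery that builds the flagellum.

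SPATA1 had by far the larger differences of the 3 genes, all negative and inside 1 intron. SPATA22 had differences of about 1 percentage point or less, all positive and at a 5′ UTR, and DPY19L2 had 1 small negative difference at coding sequence in a CpG island. A tile was called at a deposited q under 0.05. On that rule 7 of the 9 tiles were called, 5 negative and 2 positive. The same rule called 71.8% of all listed tiles, 55.9% as negative and 15.9% as positive, so the count is close to that share. Of the other listed tiles on the chromosomes of SPATA1, SPATA22 and DPY19L2, it called 61.5%, 57.8% and 74.9%. The tiles of SPATA1 overlap each other, as do those of SPATA22, so the 9 tiles are not separate measurements. Size separated the genes more than the call did. The largest member difference in size was 22.3 times the smallest.

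**Figure D1:**
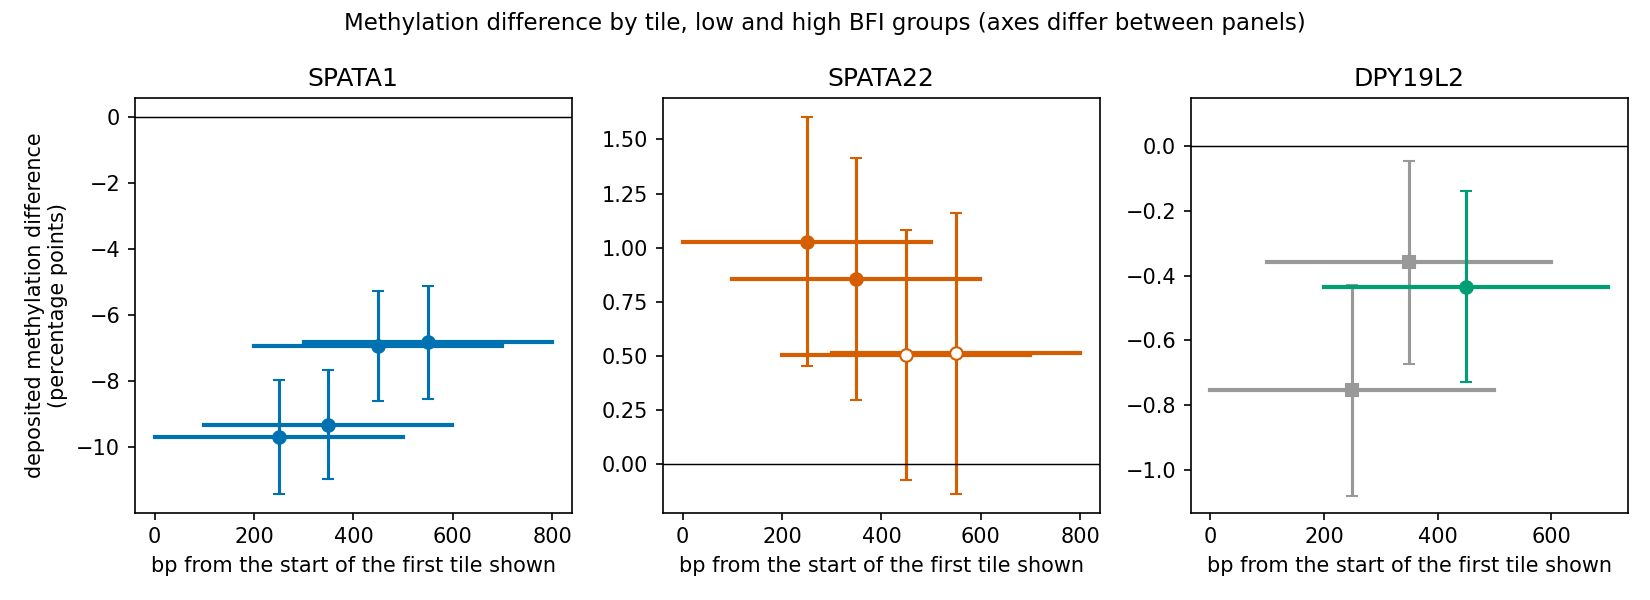
Deposited methylation difference in percentage points (y axis, a different scale in each panel) against bp from the start of the first tile shown (x axis). Horizontal lines span each tile and vertical lines are 95% intervals from the error that the deposited p implies. Filled circles are tiles with a q under 0.05, open circles other tiles, and grey squares the 2 island tiles, both called, that overlap the same DPY19L2 coding sequence. All 4 SPATA1 tiles lie between -9.69 and -6.82, all SPATA22 tiles lie above 0, and the DPY19L2 tiles lie within 1 point of 0.

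SPATA1 (ENSBTAG00000020010) lies on the minus strand of chromosome 3, and its tiles cover 800 bp of ARS-UCD1.2, from 59558301 to 59559100. Every base of them is inside a single intron of 14215 bp (59551910 to 59566124). The first tile starts 6391 bp above the intron's lower edge, and the last ends 7024 bp below its upper edge, so the tiles lie near the middle. In the authors' deposited table the tile from 59558301 to 59558800 differed by -9.69 percentage points (q = 2.87e-27). The next, from 59558401, differed by -9.31 (q = 4.39e-27) in the authors' deposited table. In the same deposited table of the authors, the tile from 59558501 stood at -6.93 (q = 3.61e-15) and the one from 59558601 at -6.82 (q = 4.53e-14). All 4 were therefore called with the same sign, and the pair with the lower coordinates had the larger sizes.

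These 4 windows are 1 locus and not 4 measurements. Neighbouring tiles shared 400 bp, and 200 bp (59558601 to 59558800) lay in all of them. The largest step, 2.38 percentage points towards 0, came where the window lost 59558401 to 59558500 and took up 59558901 to 59559000. The other steps were 0.37 and 0.11 points. Differences between overlapping tiles were not tested.

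No tile of SPATA1 reached 10 percentage points, the minimum that called 2.78% of listed tiles together with the q. At a minimum of 5 points all 4 tiles passed, against 15.4% of listed tiles, and at 1 point, again all 4, against 56.2%. By the largest size of difference among its tiles, SPATA1 ranked 22 among the 540 gene IDs and 14 among the 463 with a description. By the size of its median difference (-8.12) it ranked 13 of 540. Its first tile had the largest size of the 308 listed on chromosome 3, where the other 304 tiles had a median of -0.17. The next in size on that chromosome, 12460 bp from the closest coding sequence and without a described gene, had -9.58 points in the authors' deposited table.

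Tiles in introns of other genes were also large in some cases. Of 723 other listed tiles that overlap an intron, 33 in 5 genes were larger in size than its first tile, and 93 in 10 genes were larger than its last. Those other intron tiles came from 174 genes and had a median of -0.78 points. Of the 5 genes with larger intron tiles, 3 had a description, namely septin 10, phosphodiesterase 5A and carbonic anhydrase 10. The nearest listed tile to SPATA1 lay 501500 bp away at mucolipin 3, a lysosomal ion channel gene, and was not called. The authors' deposited table puts it at -0.09 percentage points, with a q of 0.314. Among genes with a listed tile, the next nearest were BTB (POZ) domain containing 8 and growth factor independent 1 transcriptional repressor. The closest tiles assigned to them lay 8346500 and 8608600 bp away, the first of these classed as distal intergenic. Of the tiles assigned to them, 1 of 4 and 2 of 3 were called, against 71.8% of all listed tiles. Their differences ran from 0.31 to 1.58 points in the authors' deposited table.

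SPATA22 (ENSBTAG00000015763) lies on the minus strand of chromosome 19. Its 4 tiles, from 24212201 to 24213000, each contain the whole of a 5′ UTR segment of 73 bp (24212571 to 24212643). The authors' deposited table classes them as downstream, at distances of 370 to 70 bp. Those distances are measured from the tile's start to the closer end of the feature, as they were for all 7290 tiles, and the SPATA22 tiles begin before the segment although they cover it. Of 1888 tiles in the downstream class, 597 overlapped their feature. On the minus strand the bases above 24212643 are upstream of the segment, and the tiles reached 57, 157, 257 and 357 bp beyond it in order of position.

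In the authors' deposited table the SPATA22 tile from 24212201 to 24212700 differed by 1.03 percentage points (q = 0.000509). The following tile, from 24212301, stood at 0.85 (q = 0.00273) in the authors' deposited table. Neither of the other two passed the call, with 0.51 (q = 0.0567) from 24212401 and 0.51 (q = 0.0765) from 24212501 in the authors' deposited table. The called tiles were thus those that reached least far upstream, while all 4 shared 200 bp that include the UTR segment. From the first to the last tile the difference fell by 0.52 points, a change that was not tested.

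SPATA22 ranked 229 of 540 gene IDs by its largest size of difference, and 247 by the size of its median difference (0.68). Among 166 other listed tiles that overlap a 5′ UTR, from 104 genes, 27 were larger in size than its first tile. Those tiles had a median of -0.04 points, and 58.4% of them were called. On chromosome 19 its tiles ranked 57, 65, 97 and 96 of 165 by size. The nearest tile of another listed gene, thioredoxin domain containing 17, lay 1025900 bp away. The authors' deposited table puts that tile at 0.38 points with a q of 0.0226.

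DPY19L2 (ENSBTAG00000032650) lies on the plus strand of chromosome 4. Its tile, from 61850701 to 61851200, begins 201 bp before a coding segment of 382 bp (61850902 to 61851283) and overlaps it by 299 bp, and it was classed as promoter. In the authors' deposited table it differed by -0.43 percentage points (q = 0.00236). The size was larger in 77.3% of all listed tiles, and in 204 of 334 other tiles that overlap coding sequence. By largest size of difference, here that of its only tile, DPY19L2 ranked 392 of 540 gene IDs, which had a median of 3 tiles. By the size of the median difference it ranked 324.

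The same coding segment was covered by tiles that do not bear the gene's name. It lies whole inside a CpG island of 915 bp (61850439 to 61851353), a stretch rich in CpG with a deposited observed over expected ratio of 0.81, and 2 listed tiles were assigned to that island instead. They overlap the coding segment by 99 and 199 bp. For the tile from 61850501 the authors' deposited table has -0.75 points (q = 5.10e-06), and for the one from 61850601 it has -0.36 (q = 0.0126). With them the locus spans 700 bp and has 3 of 3 tiles called, all negative and between -0.75 and -0.36 points. The same rule called 71.8% of all listed tiles, 55.9% as negative. The island tiles share 300 and 400 bp with the DPY19L2 tile, so the 3 are not separate measurements. A second island had 4 listed tiles, the nearest of them 65500 bp from the DPY19L2 tile. The outermost, which overlaps that island by 117 bp, stood at 3.31 points (q = 3.22e-08) in the authors' deposited table. The other 3 lay between -0.34 and 0.57. The nearest tile of another listed gene, endonuclease/exonuclease/phosphatase family domain containing 1, lay 780900 bp from the DPY19L2 tile. It was not called, with 0.04 points and a q of 0.283 in the authors' deposited table. In the gene order of RefSeq (assembly ARS-UCD2.0, from which only names were taken), the protein-coding neighbours of DPY19L2 are TBX20 and DPY19L1. The latter is a paralogue of DPY19L2, and no tile was described as dpy-19 like 1.

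**Figure D2:**
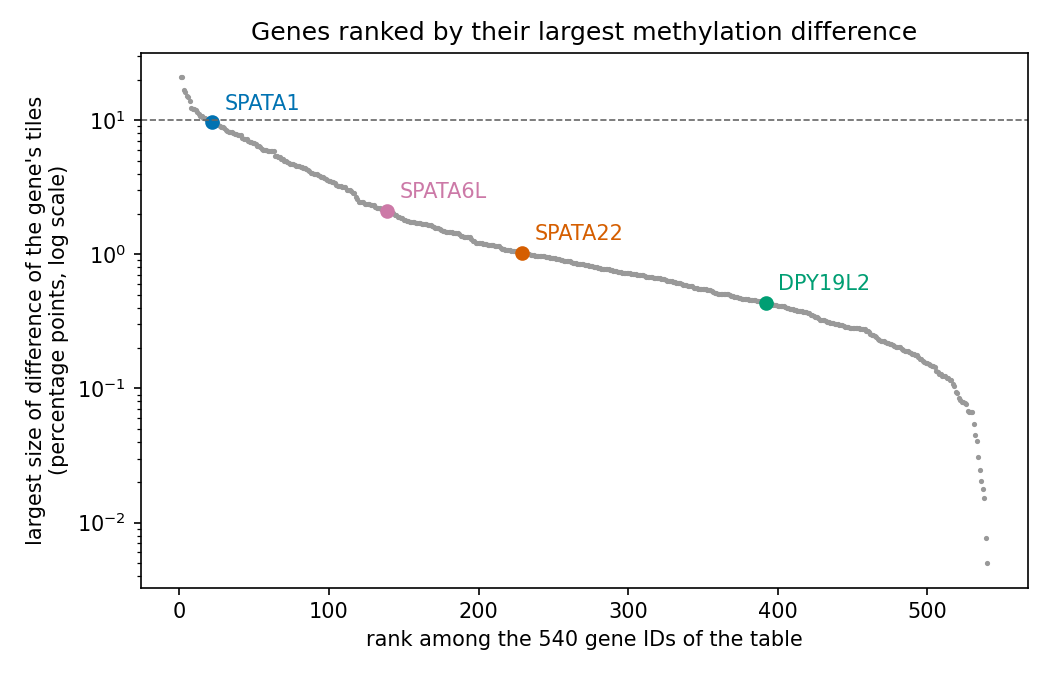
Largest size of difference among each gene's tiles (y axis, percentage points, log scale) against its rank among the 540 gene IDs (x axis), 1 point per gene, with a dashed line at 10 points. SPATA1 at rank 22 lies just under the line, SPATA6L follows at 139, and SPATA22 and DPY19L2 lie at 229 and 392.

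The deposited p-values carry the only measure of error for these tiles. If each p is read as coming from a two-sided normal test, dividing the difference by the matching normal deviate gives the standard error that the p implies. That error covers only what the authors' test allowed for, and no source used here says whether it includes differences between bulls. The first SPATA1 tile had an implied error of 0.88 percentage points and an interval of -11.4 to -7.97 (95%). For the first SPATA22 tile the implied error was 0.29 points (0.45 to 1.604), and for the DPY19L2 tile 0.15 points (-0.73 to -0.14). The median over all listed tiles was 0.50 points. Only 5.74% of tiles had a smaller implied error than DPY19L2, against 79.0% for the first tile of SPATA1. The implied error is computed from difference and p, so a small called difference such as that at DPY19L2 implies a small error. The interval of the first SPATA1 tile extends past -10 points, so its place under that minimum is within its own error.

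**Figure D3:**
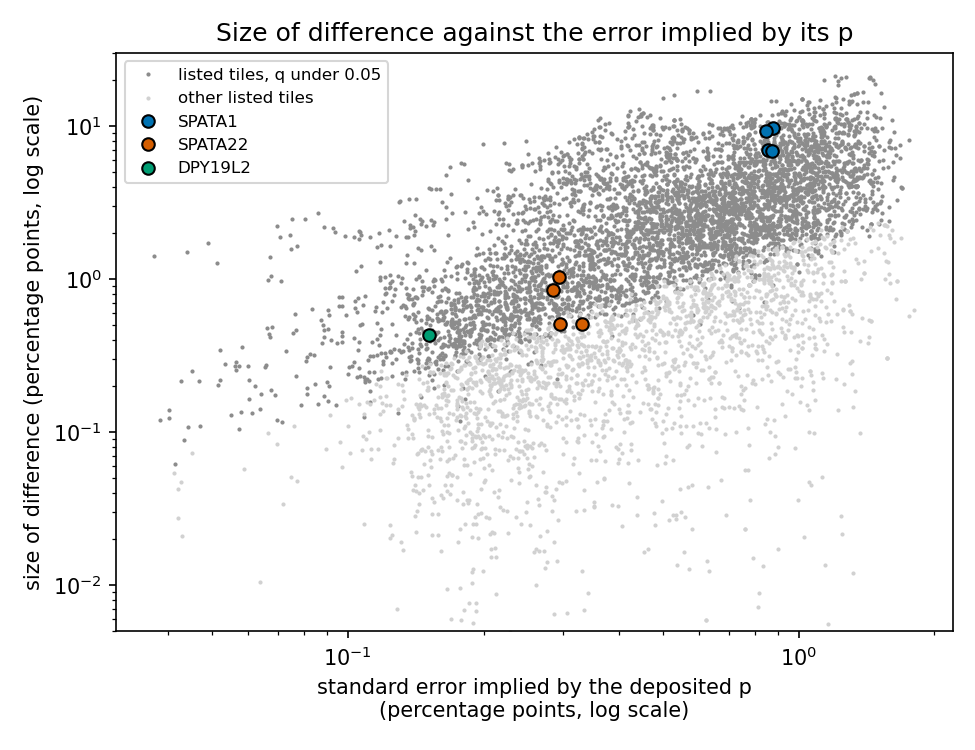
Size of the deposited difference (y axis, percentage points, log scale) against the standard error implied by its p (x axis, percentage points, log scale), 1 point per listed tile, dark where q was under 0.05. Sizes under 0.005 points and tiles with a p of 0 are not drawn. SPATA1 tiles lie at large sizes and errors near 0.86 points, and DPY19L2 at 0.43 points with an error of 0.15.

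The q-values of the 3 genes are not on 1 scale. Within each of the 27 chromosomes q never fell as p rose, but with all chromosomes ordered by p it fell between 2744 neighbouring pairs of tiles. This pattern is that of q-values set chromosome by chromosome, although no source used here says how they were set. The highest p that still had a q under 0.05 was 0.0699 on chromosome 3, 0.0738 on chromosome 19 and 0.115 on chromosome 4, and over all chromosomes it ran from 0.0184 to 0.503. As an example from the authors' deposited table, the third SPATA22 tile had a p of 0.0863 and was not called. A tile of the second island on chromosome 4, 65600 bp from the DPY19L2 tile, had a p of 0.115 and was called (q = 0.0469). The q of DPY19L2 was below its p (0.00236 against 0.00409), and 68.7% of all listed tiles shared that property. Adjusting the deposited p over all listed tiles by Benjamini-Hochberg kept the member calls at 4, 2 and 1 tiles, and called 62.5% of listed tiles. The adjusted p was then 0.00784 for DPY19L2, and 0.123 and 0.167 for the last 2 tiles of SPATA22.

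**Figure D4:**
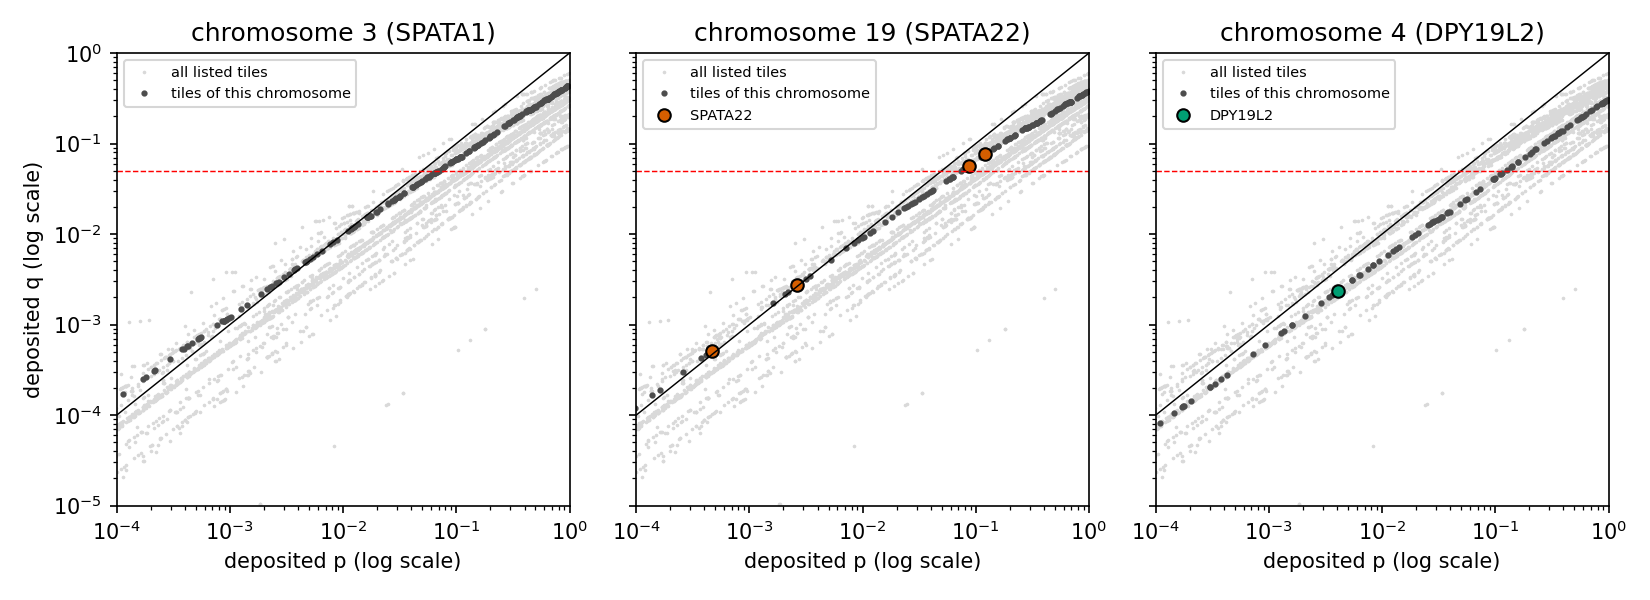
Deposited q (y axis, log scale) against deposited p (x axis, log scale) on the chromosome of each gene (dark points) over all listed tiles (light points), with the line of equality and a dashed line at 0.05. Each chromosome follows a curve of its own, and DPY19L2 lies under the line of equality. SPATA1 tiles have smaller p-values than the axis shows.

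From the list of meiotic recombination and synapsis genes, SPATA22 is the one reported here, with 2 called tiles, both positive. A called tile was found for 73.3% of all gene IDs. Of 41 genes of the acrosome and sperm head, DPY19L2 was the only one found in the table.

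By family name, 4 described genes matched, the 3 above and SPATA6L. SPATA6L, a paralogue of the sperm neck gene SPATA6, had 1 tile on chromosome 8 (39841701 to 39842200) that overlaps its 5′ UTR by 152 bp. Its difference in the authors' deposited table was 2.11 points (q = 2.22e-13), and the implied error was 0.28. These 4 genes had 10 tiles, of which 8 were called, close to the 71.8% of all listed tiles. Of the 4 genes SPATA1 and DPY19L2 were negative and SPATA22 and SPATA6L positive. A tile of at least 5 points, found for 12.8% of all gene IDs, was present for SPATA1 and for neither of the other two members. A tile of at least 10 points, found for 3.52%, was present for none of the 3.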

How the data were processed

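Sperm DNA of 12 samples was compared by the authors as 2 groups of 6. Named in the submitters' processing notes, without versions or settings, are the tools Trimmomatic, Bismark and methylKit and the builds ARS-UCD1.2 and bosTau9. The deposited p-value and q-value of each tile, and its methylation difference, stand under column names of methylKit, per the file headers. The filter on tiles, the coverage minimum, the test and the depth are not given in the sources used here. No column belongs to 1 sample (0 columns of sample values were left unmatched), so the groups were not tested anew.

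Tiles were matched to genes by description, and RefSeq places all 3 genes on the chromosomes given in the table. Overlaps were recomputed from tile and feature edges. Implied errors and Benjamini-Hochberg adjustment used Python 3.11.15, NumPy 2.4.6, SciPy 1.17.1 and pandas 2.3.3, after tests on simulated data. Figures used matplotlib 3.10.9. Named genes were the 3 members, genes of the pathway lists with a tile, and up to 3 nearest listed genes a member. Of these nearest genes all 3 are reported for SPATA1, and only the closest for SPATA22 and for DPY19L2. The 5 genes with larger intron tiles were counted and those with a description named after their values were seen. List genes were matched by full names, so members among the 77 gene IDs without a description would be missed. For 1 gene of the meiotic list the result is not reported here. Members and lists were chosen with earlier results of these data known. Intervals rest on the deposited p-values, and no source used here says whether these allow for the spread between bulls.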

Additional observations from a re-analysis of the deposited data

How the results depend on the processing

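The member calls stayed at 4, 2 and 1 tiles for SPATA1, SPATA22 and DPY19L2 at q under 0.01 or unadjusted p under 0.05. They also did with Benjamini-Hochberg adjustment over all listed tiles or, chosen after seeing the data, within each chromosome. In that order, these settings called 59.7%, 65.8%, 62.5% and 62.2% of all listed tiles. Keeping only tiles within 5000 bp of the feature could not change the calls, because every member tile overlaps its feature. A minimum size of difference changed the calls. At 1 percentage point SPATA22 kept 1 tile and DPY19L2 0, and 56.2% of all listed tiles passed. At 5 points both had 0, and 15.4% of all listed tiles passed. At 10 points SPATA1 also had 0, and 2.78% of listed tiles passed. Joined to loci, SPATA1 and SPATA22 had 1 called locus each, because their tiles overlap, and 76.9% of all 1475 loci were called. The tile with the smallest q stood at -9.69 points for SPATA1 and 1.03 for SPATA22, in place of medians of -8.12 and 0.68. With the island tiles that overlap its coding sequence, added after seeing the data, DPY19L2 had 3 called tiles, which share bases. The settings could not change a sign, because each reused the deposited differences. All tiles of a gene, including these island tiles for DPY19L2, had the same sign. Leaving out samples was not run, and no paired analysis was possible because the table holds no values per sample and the sample numbers pair no samples. The unknown depth limits all of these values.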

Other observations

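Other genes with known roles in male germ cells were also listed, picked from the descriptions after the table had been seen. HSPA2, a heat shock protein needed in male meiosis, had 7 tiles on chromosome 10, of which 5 were called, all positive, and those 5 ran from 0.54 to 1.02 percentage points in the authors' deposited table. PHF7, a chromatin reader of spermatids, had 2 called tiles on chromosome 22, at 0.33 and 0.45 points in the authors' deposited table. TESK1, a kinase first described in testis, had 3 of 4 tiles called on chromosome 8, and those 3 ran from 0.39 to 0.63 points in the authors' deposited table. RPL10L, a testis copy of a ribosomal protein gene, had 3 called tiles on chromosome 10 that were negative, from -0.66 to -0.48 points in the authors' deposited table. All 4 genes stayed near or under 1 point in size, as SPATA22 and DPY19L2 did, and 13 of their 16 tiles were called, against 71.8% of listed tiles.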
